A study of Arabidopsis thaliana with 2 samples.

Results

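Berberine bridge enzyme-like oxidases are plant flavoproteins that carry FAD and resemble an alkaloid-forming enzyme of poppies. The set described here was chosen by locus identifier, with results of these libraries known, and holds 10 of the 27416 genes in the deposited table. It comprises FOX1 (AT1G26380) with its neighbours AT1G26390, AT1G26400, AT1G26410 and AT1G26420, a further pair on the same chromosome (AT1G30700 and AT1G30720), and the chromosome 4 genes OGOX1 (AT4G20830), OGOX2 (AT4G20840) and CELLOX (AT4G20860). All 10 identifiers were found in the table.

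Most enzymes of this family enter the secretory pathway, and those that act as oxidases pass electrons from their substrate to oxygen and so form hydrogen peroxide. FOX1 acts in a defence pathway that turns tryptophan into cyanogenic indole compounds, where it oxidises an indole cyanohydrin to indole carbonyl nitrile. OGOX1 and OGOX2 oxidise oligogalacturonides, which are pectin fragments, and CELLOX oxidises cellodextrins, which are cellulose fragments. Such fragments are sensed as signs of wall damage, and their oxidised forms are weaker elicitors.

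The samples were whole Arabidopsis thaliana seedlings of strain Columbia, labelled WT, at post-germination day 10. The control group was left without flg22, and the flg22 group received this flagellin peptide at 1 µmol/L for 4 h. Each group is 1 library of messenger RNA made from 3 pooled biological replicates, so no difference here has a replicate check and no test was possible. The libraries held 21414567 control and 24621440 flg22 reads in genes. Levels are given in the authors' RPKM, in which reads are divided by the deposited length of the gene and by the total of the library. That length counts introns in some genes, so ranks in order of level depend on it. A log2 ratio is flg22 over control after adding 1 RPKM to both, so ratios of weak genes are understated. A fold is the ratio of reads per library total with nothing added, and the range after it is its exact 95% (Clopper-Pearson) counting interval, which covers counting error only.

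The defining shoot genes RBCS1A, RCA and LHCB1.3 were all detected, and their summed level was 13255 RPKM in the control and 3835 RPKM with flg22, all 3 being at least 2-fold lower. The 4 root markers were all detected and summed to 34.3 and 33.7 RPKM, the seed storage genes summed to 1.66 and 0.603 RPKM, and the pollen marker was at 0 in both. These sums hide opposite moves. From control to flg22, PRP3 went from 20.1 to 12.5 RPKM, EXPA7 from 3.25 to 6.59, NRT2.1 from 8.99 to 12.6 and COBL9 from 1.90 to 1.91. Of the seed genes, CRA1 had 69 and 7 reads and SESA1 had 1 and 8. In bulk seedlings fewer cells of a type and less RNA per cell cannot be told apart, and the part of these shifts in the results was not tested. FRK1 (AT2G19190), a receptor-like kinase gene whose induction commonly marks flg22 signalling, had 84 control and 8219 flg22 reads.

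The 250 bases upstream of the annotated gene start are printed for 5 members. These windows show how the W-box, the element bound by WRKY transcription factors, is placed. They are those of FOX1, of a neighbour of it with few reads in both libraries, and of the most abundant members with 1 or several copies. The sequences and starts are those of RefSeq, assembly TAIR10.1, read 5′ to 3′ on the strand of the gene. The deposited table names TAIR10 genes and holds no coordinates, so genes were matched by identifier. Capitals mark TTGACC or TTGACT on either strand, which read ggtcaa or agtcaa when the motif lies on the other strand.
FOX1, chr1:9128569-9128818 (minus strand): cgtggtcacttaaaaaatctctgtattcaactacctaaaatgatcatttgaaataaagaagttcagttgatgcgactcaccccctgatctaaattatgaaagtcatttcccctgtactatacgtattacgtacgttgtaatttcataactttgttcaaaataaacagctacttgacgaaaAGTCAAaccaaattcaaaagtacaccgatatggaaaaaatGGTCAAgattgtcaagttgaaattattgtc
AT1G26390, chr1:9131780-9132029 (minus strand): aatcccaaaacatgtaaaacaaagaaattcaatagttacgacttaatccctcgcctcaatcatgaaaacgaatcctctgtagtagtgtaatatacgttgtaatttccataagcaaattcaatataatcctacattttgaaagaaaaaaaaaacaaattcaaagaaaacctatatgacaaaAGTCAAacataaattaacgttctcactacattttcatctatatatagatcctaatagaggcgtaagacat
AT1G30720, chr1:10897675-10897924 (plus strand): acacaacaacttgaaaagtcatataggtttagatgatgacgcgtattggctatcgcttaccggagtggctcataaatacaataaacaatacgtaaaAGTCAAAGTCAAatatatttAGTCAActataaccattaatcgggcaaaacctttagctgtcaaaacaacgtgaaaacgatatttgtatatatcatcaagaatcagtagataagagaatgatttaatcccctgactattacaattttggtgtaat
OGOX1, chr4:11155203-11155452 (plus strand): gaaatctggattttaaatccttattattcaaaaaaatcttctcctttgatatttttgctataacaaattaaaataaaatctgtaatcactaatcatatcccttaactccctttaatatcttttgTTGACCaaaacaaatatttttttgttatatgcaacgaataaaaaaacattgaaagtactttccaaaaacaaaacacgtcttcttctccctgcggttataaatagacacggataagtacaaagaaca
CELLOX, chr4:11172372-11172621 (plus strand): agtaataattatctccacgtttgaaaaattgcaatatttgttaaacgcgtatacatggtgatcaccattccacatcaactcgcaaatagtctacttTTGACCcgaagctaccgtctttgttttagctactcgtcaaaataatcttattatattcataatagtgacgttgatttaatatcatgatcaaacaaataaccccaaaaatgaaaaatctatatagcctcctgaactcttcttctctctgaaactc

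With flg22, 7 of the 10 genes were far higher than in the control, OGOX2 was at nearly the same level, and the remaining 2 had few or no reads. Averaged over the libraries, 8 of the 10 reached 1 RPKM, the minimum for the counts that follow, and AT1G26410 reached it through the flg22 library alone. Of these 8, 7 were at least 2-fold higher on the log2 scale and 0 at least 2-fold lower, against 11.3% and 8.27% of the 18724 genes that reached that mean. At 4-fold, 7 were higher and 0 lower, against 4.17% and 1.49%. At 8-fold 7 were still higher, as were 1.7% of all genes past the filter, and 6 were at least 16-fold higher, as were 0.587%. The median log2 ratio of the 8 was 4.26, and over all genes past the filter it was -0.03. Ratios centred on the median of 10 reference genes are lower by 0.18 throughout. Over all genes the centred ratios split into 1759 higher and 2193 lower where the main scaling gave 2111 and 1548. The 10 reference genes were not all stable, with log2 ratios from -0.42 to 1.70 and 1 of them at least 2-fold higher. The members were listed with results of these libraries known, so their counts describe them and are not independent evidence of a family response.

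**Figure D1:**
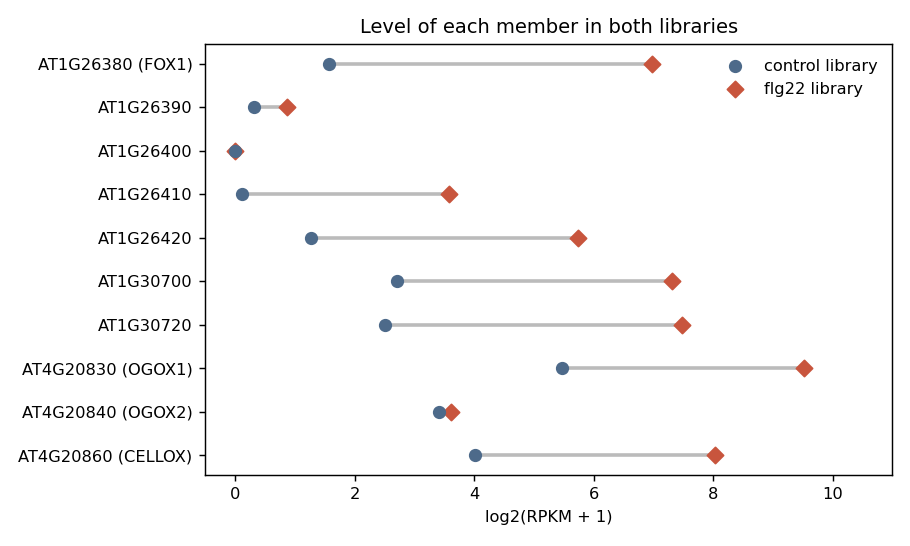
Level of each of the 10 genes in the control library (circles) and the flg22 library (diamonds), as log2(RPKM + 1), with 1 library per group and no error bars. The 7 genes counted as higher have widely spaced points, while the points of OGOX2 and AT1G26390 lie close together and both points of AT1G26400 lie at 0.

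FOX1, the indole cyanohydrin oxidase, had 76 control and 5518 flg22 reads. Its level went from 1.98 to 125 RPKM, a 63.1-fold difference (50.4 to 80.3). The log2 ratio of 5.40 placed FOX1 at rank 21 from the top of the 18724 genes. In order of level, FOX1 stood at rank 16788 of the 27416 listed genes in the control and at rank 673 with flg22.

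The 4 neighbours of FOX1 lie beside it on the minus strand of chromosome 1, and their own substrates are not established here. AT1G26420 had 53 control and 2250 flg22 reads, or 1.42 and 52.6 RPKM, and was 36.9-fold higher (28.1 to 49.4). AT1G26410 had 3 control and 477 flg22 reads, or 0.0794 and 10.98 RPKM. Its fold of 138 carries an interval of 47.04 to 673 because the control count is so small, and its log2 ratio was 3.47. AT1G26390 had 9 and 36 reads, at 0.239 and 0.8298 RPKM, a 3.48-fold difference (1.64 to 8.21) with a log2 ratio of 0.56. AT1G26400 had 0 reads in both libraries, which allows up to 0.140 CPM (counts per library total, as RPKM but without length) in the control and 0.122 CPM with flg22.

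The array therefore spanned the whole range from no reads to rank 21 of the response, although its members are close copies. Coding sequence identity within the array was 85.8% to 87.6% over aligned bases. Of all 50-base stretches of exon in the reference, 98.1% to 100% were unique in the genome for each of the 10 members, and 99.7% were unique for AT1G26400. Neither the read length nor the rule for reads with several placements is stated in the labels.

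**Figure D2:**
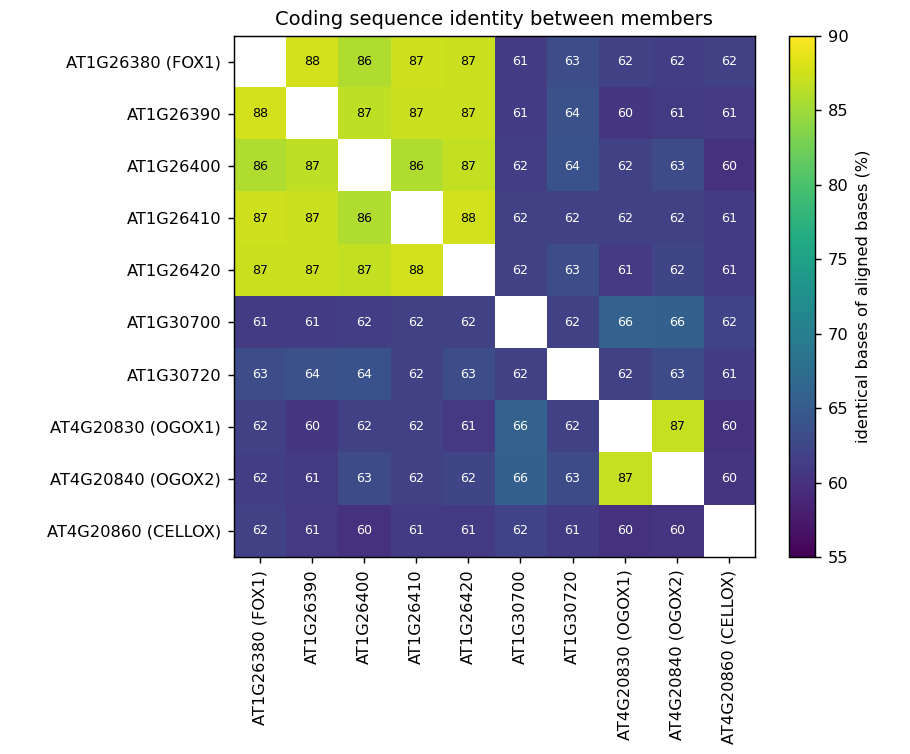
Percent of aligned coding bases that are identical between each pair of the 10 genes, from global alignment of RefSeq coding sequences. The FOX1 array forms 1 block at 85.8% to 87.6%, OGOX1 and OGOX2 share 86.9%, and every other pair lies at 66.0% or less.

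AT1G30700 and AT1G30720 encode family members without an assigned reaction in the background used here. AT1G30700 had 239 control and 7784 flg22 reads, at 5.57 and 158 RPKM, and was 28.3-fold higher (24.9 to 32.4). AT1G30720 had 176 and 7612 reads, at 4.72 and 178 RPKM, and was 37.6-fold higher (32.4 to 43.9). Their log2 ratios were 4.60 and 4.96, at ranks 52 and 35 of the genes past the filter. The pair shares 62.0% of aligned coding bases. Which of them is the more abundant with flg22 depends on the gene length used: the ratio of AT1G30720 to AT1G30700 was 1.13 by the deposited length and 0.972 by the joined exons of RefSeq, an alternative chosen after the data were seen.

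Among the wall-fragment oxidases, OGOX1 was the most abundant of the 10 in both libraries. It had 2190 control and 42484 flg22 reads, at 43.5 and 733 RPKM, a 16.9-fold difference (16.2 to 17.6). In order of RPKM over all listed genes, OGOX1 moved from rank 1967 to rank 27. CELLOX had 596 and 11799 reads, at 15.1 and 259.7 RPKM, and was 17.2-fold higher (15.9 to 18.7). The fold intervals of OGOX1 and CELLOX overlap, and the ratio of their levels was 2.88 in the control and 2.82 with flg22. They share 60.1% of aligned coding bases.

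OGOX2 had 336 control and 447 flg22 reads, at 9.69 and 11.2 RPKM. Its fold of 1.16 (1.00 to 1.34) lies far below that of OGOX1, with intervals that do not overlap, and it fell to 1.01 when centred on the reference genes. The 2 genes lie on the same strand with 109 bases between them, and they share 86.9% of aligned coding bases. By the deposited lengths, the level of OGOX1 was 4.48 times that of OGOX2 in the control and 65.4 times with flg22. These ratios depend on the length used. By joined exon length OGOX1 and OGOX2 stood at 46.5 and 8.04 RPKM in the control and at 784 and 9.30 RPKM with flg22. Every 50-base exon stretch of both was unique in the genome. RefSeq places AT4G20835 on the opposite strand across 1570 bases of OGOX1, and since no strand rule is stated, reads of that gene and of OGOX1 cannot be told apart. AT4G20870, on the opposite strand, shares 18 bases with CELLOX and had 633 control and 519 flg22 reads.

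**Figure D3:**
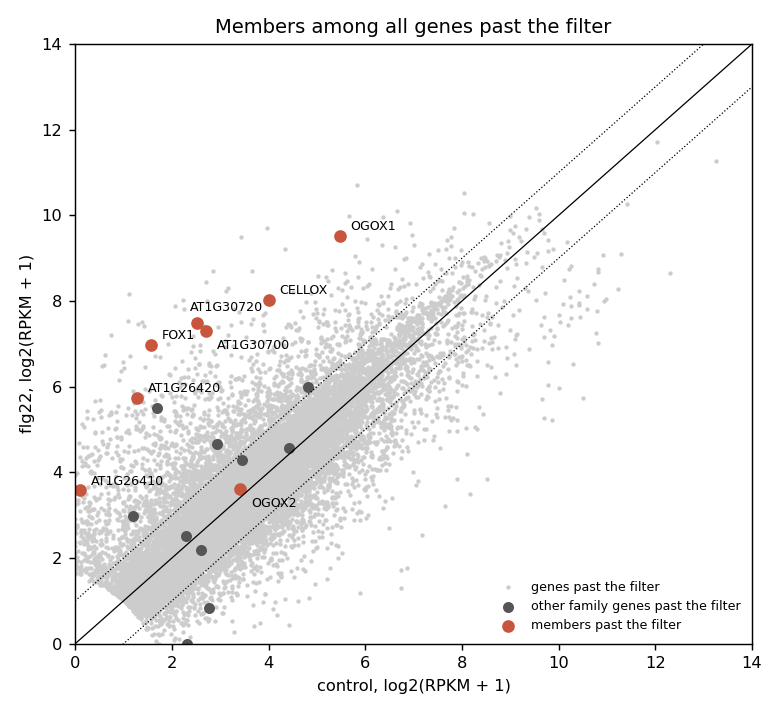
Control level (x axis) against flg22 level (y axis), both log2(RPKM + 1), for the 18724 genes past the filter (grey), other family genes (dark) and the 8 members past it (red). The solid line marks equal levels and the dotted lines 2-fold, and 7 members lie above the upper dotted line while OGOX2 lies between them.

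Together the 10 genes took 3678 control reads and 78407 flg22 reads, or 0.0172% and 0.318% of the libraries, an 18.5-fold difference (17.9 to 19.2). Without OGOX1, which alone gave 59.5% of the members' control reads and 54.2% of their flg22 reads, the difference was 21.0-fold (19.9 to 22.1). CELLOX held 16.2% and 15.0% of the members' reads. FOX1 went from 2.07% to 7.04% of them, and OGOX2 from 9.14% to 0.5701%. By RPKM the order with flg22 was OGOX1, CELLOX, AT1G30720, AT1G30700, FOX1, AT1G26420, OGOX2, AT1G26410, AT1G26390 and AT1G26400. By joined exon length AT1G26410 stood just above OGOX2 instead, at 10.6 against 9.30 RPKM, so these neighbours in the order are not separated. In the control OGOX1 and CELLOX also led, but OGOX2 followed them, ahead of AT1G30700 and AT1G30720, while FOX1 and AT1G26420 came next with under 2 RPKM each.

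The authors also compared these libraries, and a false discovery rate (FDR) is given per gene in the authors' deposited table. By the authors' deposited table, the FDR was below 0.05 in the higher direction for 6 members, against 0.811% of the 23414 genes with a value. The FDR in the authors' deposited table was 0.00203 for FOX1 and 0.00270 for AT1G26410, and it was 0.0501 for OGOX1, which so missed the limit with the largest read count of the set. The authors' deposited table gives CELLOX, at nearly the same fold, an FDR of 0.0485. The authors' deposited table gives FDR 1 for OGOX2 and AT1G26390 and no value for AT1G26400. With 1 library per group these values describe the libraries and not the conditions.

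A further 17 genes of the family were listed from background knowledge, also with results of these libraries known, and 12 of them had reads. Of the 10 past the filter, 4 were at least 2-fold higher and 2 at least 2-fold lower, beside 11.3% and 8.27% of all genes past the filter, and their median log2 ratio was 0.53. The largest was AT1G30730, the next gene after AT1G30720 and 85.1% identical to it in coding sequence, with 81 control and 1836 flg22 reads, 19.7-fold higher (15.8 to 24.9). AT5G44390 was 5.34-fold higher (4.19 to 6.89). MEE23 (AT2G34790), a monolignol oxidoreductase gene, was 3.66-fold higher (3.32 to 4.05), and AT5G44380 was 2.31-fold higher (2.18 to 2.45). Centred on the reference genes, AT5G44380 lay within 2-fold on the log2 scale, and 3 genes stayed higher. AT1G30760, the other monolignol oxidoreductase gene of the list, was 1.88-fold higher (1.69 to 2.09) and so within 2-fold.

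In the lower direction, AT5G44440 had 150 control and 0 flg22 reads, which makes it at least 46.2-fold lower by the limit of its exact interval and 57.5-fold against a floor of 3 reads in the flg22 library. AT4G20820, the family gene before OGOX1 on chromosome 4, had 198 control and 31 flg22 reads and was 7.34-fold lower (5.01 to 11.1). Both genes passed the filter through the control library alone. In the control and with flg22, AT5G44440 was at 3.99 and 0 RPKM and AT4G20820 at 5.79 and 0.788 RPKM. AT4G20820, OGOX1 and OGOX2 are consecutive family genes on 1 strand, and the first was lower, the next higher and the last close to its control level. The listed oligogalacturonide oxidase genes OGOX3 (AT1G11770) and OGOX4 (AT1G01980) had 0 and 0 reads, and 7 and 2 reads, so OGOX1 and OGOX2 carried nearly all reads of that group of 4. AT1G30740 had 2 and 13 reads. AT2G34810, AT5G44400 and AT5G44410 lay within 2-fold, with log2 ratios of 0.22, 0.15 and -0.41. AT1G30710, AT1G34575, AT4G20800 and AT5G44360 had 0 reads in both libraries.

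**Figure D4:**
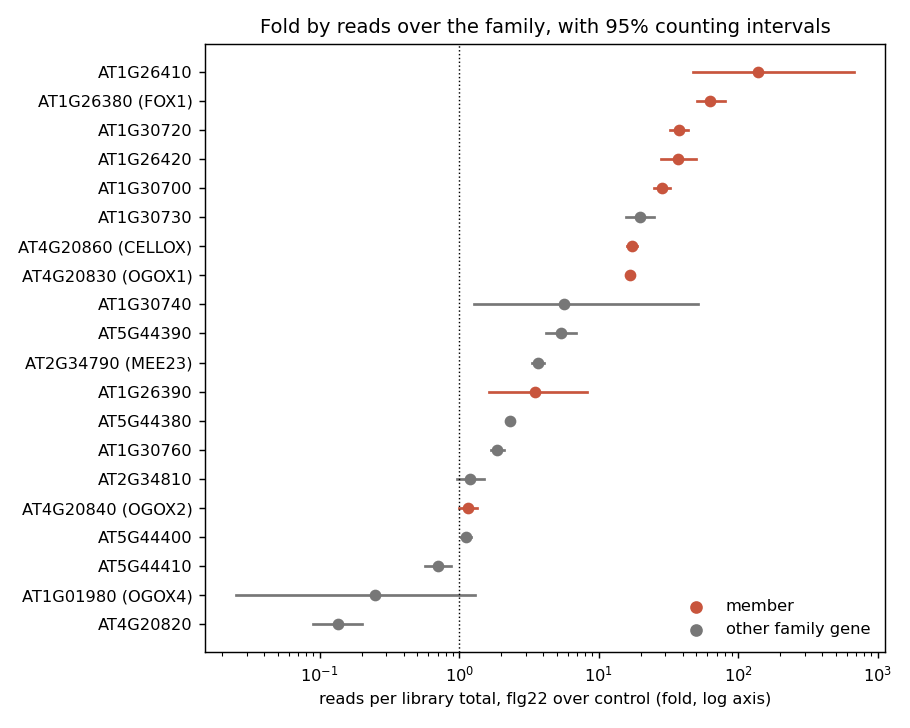
Ratio of reads per library total, flg22 over control, on a log axis for the 20 family genes with reads in both libraries, with exact 95% counting intervals as lines. Members (red) take the upper positions from AT1G26410 at 138 to OGOX1 at 16.9, joined by AT1G30730 at 19.7, while OGOX2 lies beside the dotted line of equal levels.

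The hexamers TTGACC and TTGACT, searched on both strands, were present in the 250-base upstream window of 8 of the 10 members, against 28.4% of 27443 protein-coding genes. AT1G26400 and OGOX2 were the members without either. In the FOX1 window printed above, the motif begins 70 and 30 bases before the annotated start, both times on the other strand. AT1G26390 holds 1 copy at the same distance of 70 bases and in the same orientation. That gene had 9 control and 36 flg22 reads, a 3.48-fold difference (1.64 to 8.21) at a low level. AT1G30720 has 3 copies at 154, 148 and 134 bases, all on the other strand, and AT1G26420 has 3 at 214, 115 and 46 bases. OGOX1 and CELLOX hold 1 copy each, on the gene strand, at 126 and 154 bases. AT1G26410 has 1 at 142 bases and AT1G30700 has 1 at 223 bases.

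Among the other family genes, AT1G30730 was 19.7-fold higher but has neither hexamer in its window, while AT1G11770 has 4 copies and no reads. Over all 27 family genes, the hexamers were present for 9 of the 11 at least 2-fold higher, for 3 of the 10 others with reads and for 3 of the 6 without reads. Of those 11, 7 are members, listed with results of these libraries known. AT1G26390, below the filter, is counted among the 10 others. Whether the hexamers go with the response was not tested. The GCC-box core GCCGCC, searched the same way, was in 0 of the 10 members' windows and in 1.87% of all windows. The window of OGOX2 overlaps the end of OGOX1, and the RefSeq start of AT1G26400 coincides with its coding start, so those windows differ in kind from the others. A match describes letters and not binding.

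**Figure D5:**
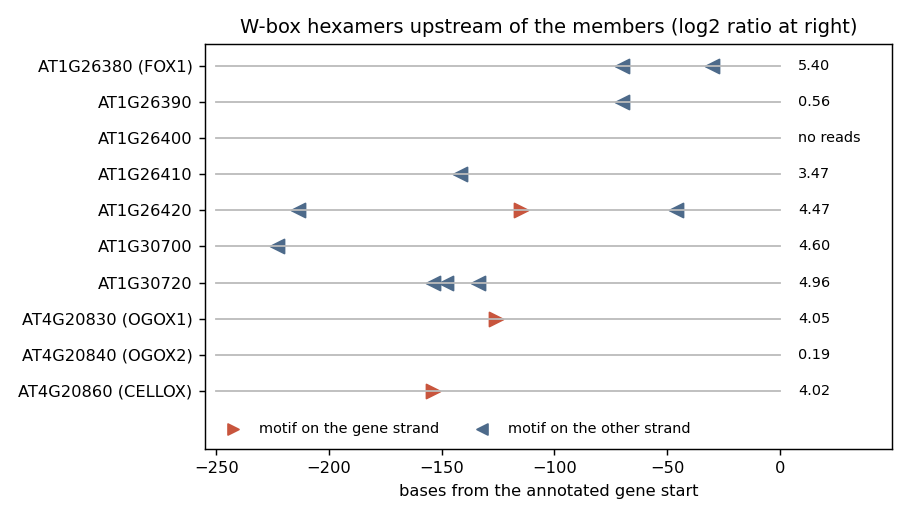
Positions of TTGACC or TTGACT in the 250 bases upstream of each member, in bases from the annotated gene start, with arrowheads pointing right for the gene strand and left for the other strand. The log2 ratio of each gene stands at the right, and AT1G26400 and OGOX2 have no motif.

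Of 8 listed genes around the indole pathway in which FOX1 acts, all 8 were at least 2-fold higher, beside 11.3% of all genes past the filter. Their median log2 ratio was 2.99. The list was chosen with results of these libraries known and does not hold enzymes of that pathway alone. It includes the transcription factor genes WRKY33 (AT2G38470) and MYB51 (AT1G18570), named after their values were seen. CYP82C2 and CYP71A13 passed the filter through the flg22 library alone. On the log2(RPKM + 1) scale the largest were CYP71A12 (AT2G30750), which metabolises indole-3-acetaldoxime, at 4.40, CYP71B15 (AT3G26830) of camalexin synthesis at 3.63, and CYP82C2 (AT4G31970), which hydroxylates the FOX1 product, at 3.24. The added constant sets this order. By reads CYP82C2, with 0 control and 405 flg22 reads, was at least 95.1-fold higher by the lower limit of its exact interval, and CYP71A13 (AT2G30770), named after its value was seen, was 54.5-fold higher (26.3 to 136). CYP71A12 was 25.8-fold higher (22.4 to 29.998) and CYP71B15 13.4-fold (12.1 to 14.9), beside 63.1-fold for FOX1.

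Genes that release, protect or sense wall fragments were mixed. Of 14 listed, 10 were past the filter, of which 3 were at least 2-fold higher and 0 at least 2-fold lower, beside 11.3% and 8.27% of all genes past the filter. Their median log2 ratio was -0.15. Centred on the reference genes, 3 were higher and 3 lower, the latter being the wall-associated kinase gene WAK2 (AT1G21270), the polygalacturonase inhibitor gene PGIP2 (AT5G06870) and the endoglucanase gene CEL2 (AT1G02800), named after their values were seen. By reads CEL2 was 2.69-fold lower (1.998 to 3.65), PGIP2 2.04-fold (1.74 to 2.39) and WAK2 1.997-fold (1.84 to 2.17). CEL2 passed the filter through the control library alone, at 2.39 RPKM in the control and 0.887 RPKM with flg22. The pectin methylesterase inhibitor gene PMEI11 (AT3G47380) had 22 control and 921 flg22 reads and a log2 ratio of 4.40, and the pectin methylesterase gene PME17 (AT2G45220) was at 2.94. WAK1 (AT1G21250), a wall-associated kinase gene, was at 1.40. CORK1 (AT1G56145), the cellooligomer receptor kinase gene, was at 0.52 and was named after its value was seen.

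Genes that supply the flavin cofactor lay mostly within 2-fold. Of 8 genes, 1 was past 2-fold upwards and 0 downwards, a share near the 11.3% of all genes past the filter, and the list's median log2 ratio was -0.15. RIBA1 (AT5G64300), at the entry of riboflavin synthesis, was at 1.36, from 26.7 to 69.9 RPKM. The FAD synthetase gene RIBF2 (AT5G08340) was at -0.36 and the deaminase gene PYRD (AT4G20960) at -0.33.

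By distance in log2(RPKM + 1) over the 2 libraries, the genes most like FOX1 in level were AT5G40590 at 0.27, the transcription factor gene WRKY40 (AT1G80840) at 0.34 and the flotillin gene FLOT1 (AT5G25250), at 0.34. WRKY40 had 107 control and 5653 flg22 reads, and FLOT1 97 and 4795. This likeness rests on 2 values per gene.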

How the data were processed

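The authors deposited read counts and RPKM for each library and a length per gene in 1 table of 27416 genes. The length is headed Exon Length. It differed from the joined exons of RefSeq in both directions, at 2353 against 2200 bases for OGOX1 and 1619 against 1952 for OGOX2. It equalled end minus start of the RefSeq gene, introns included, for 5083 of 26719 matched genes, OGOX1 among them. For MEE23 it was 3430 bases, against a span of 3559 and joined exons of 1918. For AT1G30700 it was 2002, against 2270 and 2039. Where the length counts introns, RPKM is lower than by exons, as for MEE23 at 6.67 against 11.9 in the control. Per the submitters' processing notes, the tools were Bowtie, TopHat and DESeq and the build TAIR10, with no versions or roles given, and no counting program is named in the labels. The deposited RPKM equalled reads divided by the deposited length and column total, to within 7.24e-06%. The authors' log2 fold change and FDR (an adjusted p-value), per the file headers, were used to count genes under an FDR of 0.05. The FDR is printed for some members only, not for the other family genes, and the authors' log2 fold change is not printed. A further 2 columns of scaled counts were not used.

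Groups came from the treatment label, with 1 library each. Log2 ratios use 1 RPKM added, genes were kept at a mean of at least 1 RPKM, and folds carry exact conditional binomial intervals at 95% (SciPy 1.17.1). A floor of 3 reads per library served only for the CPM limits and for the fold said to be against it. Log2 ratios and exact intervals used a count of 0 as it stood. Without molecular identifiers, these limits describe counting error alone. Gene models and upstream windows were read from RefSeq TAIR10.1, and coding sequences were aligned globally with Biopython 1.88. The steps were tested on simulated data.

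Members and lists were chosen with earlier results of these data known. Named genes were all family genes, the 3 largest log2 ratios of each pathway list in either direction, and the 3 genes nearest to FOX1. Genes named outside this rule are said to have been named after their values were seen. Other scalings, added constants, filters and limits were tried as alternatives. Protein sequences were not used here.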

Additional observations from a re-analysis of the deposited data

How the results depend on the processing

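The counts of 7 members at least 2-fold higher and 0 lower held with 5 or 0.1 RPKM added, with centring on reference genes or on the median gene, without a filter, with a mean of at least 5 RPKM and at a 4-fold limit. The members' median log2 ratio was 3.82 with 5 RPKM added, 4.96 with 0.1 RPKM added, 4.08 centred on reference genes and 4.03 without a filter. Over all genes, 1392 were higher and 830 lower with 5 RPKM added, and 781 and 279 at the 4-fold limit. The level of AT1G30720 over AT1G30700 with flg22 was 0.972 by joined exon length, the reverse of the deposited order, and that of OGOX2 over AT1G26410 likewise was 0.881. The fold of OGOX2 was 1.01 centred on reference genes. No paired analysis was possible because each group is 1 library, and no library could be left out for the same reason. Depth limits AT1G26410, with 3 control reads, AT1G26390 and AT1G26400.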
